A study of Mus musculus with 10 samples.

Results

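Broad H3K27me3 islands are long stretches of chromatin that carry trimethylated lysine 27 of histone H3. They were taken here as the islands on the 17 autosomes other than 6 and 19 whose end position exceeded the start position by 10000 bases or more in the authors' lists. The rule kept 1069 of 34498 islands in the list from vehicle-treated cells and 2184 of 24947 in the list from cells given GSK126, together 3253 of 59445 islands. The members were selected on their length in the ChIP-seq data, and the lists also hold islands that were not above input, with an authors' adjusted p of 0.05 or more in 5 broad vehicle and 13 broad GSK126 islands. Island number, length and ChIP/input are therefore description without a test.

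The cells were MC3T3, a mouse calvarial pre-osteoblast line, kept in an osteogenic medium that contained ascorbic acid and beta glycerol phosphate. One group received vehicle and the other 5 µM GSK126, a small-molecule inhibitor of the methyltransferase EZH2. Chromatin was taken 24 hours after the first dose, with 1 ChIP and 1 input library per treatment, whereas RNA came from days 3, 6 and 10, as a single library for each treatment at each time, with 97291878 to 111537936 counts. The dose was repeated after 3 days and removed on day 6, so the day 10 libraries followed removal. There were no replicates of any ChIP, input or RNA group, and intervals given below cover counting error only. Intervals on shares of islands or genes take each island or gene as an independent draw, which neighbouring islands are not. They do not measure spread between cultures and test no difference between the lists.

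EZH2 is the catalytic subunit of Polycomb repressive complex 2, which writes H3K27me3. In mammalian cells the mark lies over silent genes, classically Hox genes and other developmental regulators, and it can spread over wide domains that also take in gene-poor DNA. In the osteoblast lineage EZH2 is known to restrain differentiation genes, which is the setting in which the inhibitor was given.

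Of the 300-base RefSeq promoter windows on these autosomes (GRCm38.p6, 250 bases before to 50 after a transcript start), 247 lay wholly inside broad vehicle islands and 463 inside broad GSK126 islands. The windows below show the range of sequence found there, from promoters dense in the dinucleotide CG to promoters almost without it. All are written 5′ to 3′ on the gene's strand, with every CG in capitals. Neurod2 (neuronal transcription factor, chr11:98329596-98329895, minus strand), Kcnj10 (inward-rectifier potassium channel, chr1:172340960-172341259, plus strand), Olfr155 (olfactory receptor, chr4:43854042-43854341, plus strand) and Ugt1a1 (bilirubin-conjugating enzyme, chr1:88211709-88212008, plus strand) lay in broad islands of both lists. Pde1b (cyclic nucleotide phosphodiesterase, chr15:103502784-103503083, plus strand) lay in a broad island of the vehicle list and Clic5 (chloride intracellular channel family, chr17:44188322-44188621, plus strand) in one of the GSK126 list. The last pair is shown because their transcripts changed with GSK126.
Neurod2: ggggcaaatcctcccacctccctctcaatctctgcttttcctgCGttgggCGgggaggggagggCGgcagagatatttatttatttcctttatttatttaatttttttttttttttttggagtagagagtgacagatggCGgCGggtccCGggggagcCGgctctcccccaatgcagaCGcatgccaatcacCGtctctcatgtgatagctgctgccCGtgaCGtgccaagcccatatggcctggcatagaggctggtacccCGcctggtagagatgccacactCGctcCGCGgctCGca
Kcnj10: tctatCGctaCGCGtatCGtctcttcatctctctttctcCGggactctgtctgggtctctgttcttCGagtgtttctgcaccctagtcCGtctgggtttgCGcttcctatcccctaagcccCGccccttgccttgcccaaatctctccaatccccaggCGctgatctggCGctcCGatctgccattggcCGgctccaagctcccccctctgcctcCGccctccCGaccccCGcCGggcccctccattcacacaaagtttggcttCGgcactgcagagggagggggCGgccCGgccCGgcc
Pde1b: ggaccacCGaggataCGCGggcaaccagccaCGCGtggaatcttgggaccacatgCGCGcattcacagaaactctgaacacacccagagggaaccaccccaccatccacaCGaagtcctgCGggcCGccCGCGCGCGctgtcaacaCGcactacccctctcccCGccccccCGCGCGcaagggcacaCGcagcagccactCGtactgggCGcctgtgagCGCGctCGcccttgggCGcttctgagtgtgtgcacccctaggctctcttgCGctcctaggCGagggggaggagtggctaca
Clic5: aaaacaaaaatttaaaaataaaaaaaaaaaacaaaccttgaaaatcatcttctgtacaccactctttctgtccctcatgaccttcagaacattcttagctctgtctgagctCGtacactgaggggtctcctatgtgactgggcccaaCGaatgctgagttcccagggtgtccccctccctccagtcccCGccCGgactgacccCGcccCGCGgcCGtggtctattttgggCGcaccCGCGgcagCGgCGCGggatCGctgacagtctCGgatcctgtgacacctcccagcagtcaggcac
Olfr155: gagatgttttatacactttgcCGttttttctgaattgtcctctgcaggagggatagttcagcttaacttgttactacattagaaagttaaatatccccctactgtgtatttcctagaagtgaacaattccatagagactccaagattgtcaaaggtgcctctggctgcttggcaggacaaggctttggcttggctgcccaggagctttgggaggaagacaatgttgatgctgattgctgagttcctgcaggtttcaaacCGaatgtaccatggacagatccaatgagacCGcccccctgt
Ugt1a1: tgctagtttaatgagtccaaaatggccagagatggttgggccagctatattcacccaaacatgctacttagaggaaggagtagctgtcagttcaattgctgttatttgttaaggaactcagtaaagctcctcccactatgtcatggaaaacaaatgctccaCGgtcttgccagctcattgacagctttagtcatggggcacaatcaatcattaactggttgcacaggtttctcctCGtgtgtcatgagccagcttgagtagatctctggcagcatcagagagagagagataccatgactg

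The Neurod2 window held 16 CG, Kcnj10 held 21, Pde1b 28, Clic5 16, Olfr155 3 and Ugt1a1 2. The motif CG reads the same on both strands and cannot overlap itself, and 94.9% of the 28487 windows on the 16 of these autosomes with windows held it at least once. A window inside a broad island held a median of 5 CG in either list, against 7 over all windows. Windows with 20 or more CG made up 15.8% of those in broad vehicle islands and 12.5% of those in broad GSK126 islands, against 27.2% of all windows. Of the windows in shorter islands, 12.8% and 11.7% held 20 or more. A full promoter window lay in 17.4% of broad vehicle islands and 15.4% of broad GSK126 islands.

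The GSK126 list held fewer islands in all but more long ones. Broad islands were 3.77% of the 28334 vehicle islands on these autosomes and 11.02% of the 19811 GSK126 islands. They covered 15.3 Mb in vehicle, which was 13.2% of all island bases, and 31.3 Mb in GSK126, which was 24.6%. The median length hardly differed, at 12800 bases in vehicle (quartiles 11000 and 15800) and 12600 in GSK126 (11200 and 15600). Islands with end minus start of 20000 bases or more numbered 98 and 214. At the limit itself, 52 vehicle and 102 GSK126 islands had the smallest passing length of 10200 bases, and 56 and 136 of 10000 bases fell just short, because the lists step in windows of 200 bases. The values on either side of the limit overlapped. The 3 passing vehicle islands on chromosome 1 had ChIP/input of 1.44, 1.64 and 1.64 and the 3 just short of it 1.94, 1.85 and 1.48, while the GSK126 values were 1.08, 1.28 and 1.65 inside and 1.37, 1.17 and 1.06 outside.

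**Figure D1:**
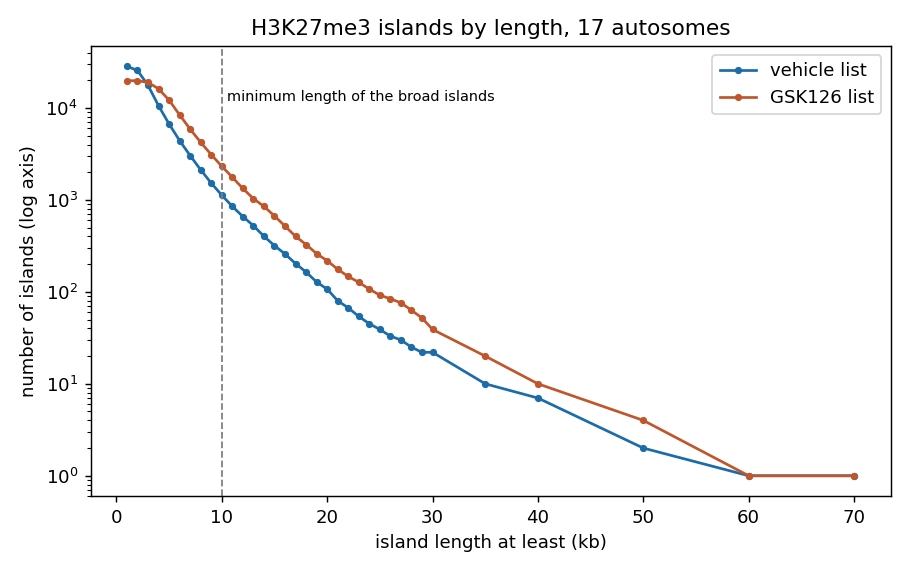
Number of islands (y axis, log scale) whose length was at least the value on the x axis (kb), on the 17 autosomes, for the vehicle and GSK126 lists. The curves cross between 2 kb and 3 kb, and from 3 kb to 30 kb the GSK126 list holds more islands, for example 10567 in vehicle against 16158 in GSK126 at 4 kb.

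ChIP reads exceeded input reads in most broad islands of both lists, by less in the GSK126 list. Median ChIP/input was 1.53 in vehicle (quartiles 1.34 and 1.74) and 1.24 in GSK126 (1.12 and 1.38). The authors' fold is the same ratio times 1 constant per list, and its medians were 2.57 and 2.06. ChIP density was nearly the same, at 15.0 and 14.9 reads per kb, whereas input density was 9.91 reads per kb in vehicle (quartiles 8.62 and 11.1) and 12.1 in GSK126 (10.9 and 13.5). Both densities depend on library depth, which is not given in the sources used here. With all broad islands pooled, ChIP/input was 1.30 in vehicle (95% exact interval 1.29 to 1.31) and 1.16 in GSK126 (1.16 to 1.17). Islands with fewer ChIP than input reads numbered 26 (2.43%) and 227 (10.4%). The ratio is not scaled for library depth and lacks the constant of the fold. An island with a ratio below 1 can therefore have a fold above 1.

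Within each list the broad islands had a median ChIP/input close to that of the shorter ones and a higher input. The median ratio of the shorter islands was 1.52 in vehicle and 1.27 in GSK126, and pooled over reads it was 1.47 and 1.23, above the pooled ratio of the broad islands. That order rested on few islands in vehicle: without islands of 30 or more input reads per kb, the pooled ratio was 1.53 (1.52 to 1.54) for broad and 1.49 (1.487 to 1.495) for shorter vehicle islands, and 1.23 (1.23 to 1.24) and 1.24 (1.24 to 1.25) in GSK126. Their median input density was 8.89 and 11.3 reads per kb, below that of the broad islands, and this order held in 15 of 17 chromosomes in vehicle and 16 of 17 in GSK126. With 1 input library per list, these values are description and not a test.

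**Figure D2:**
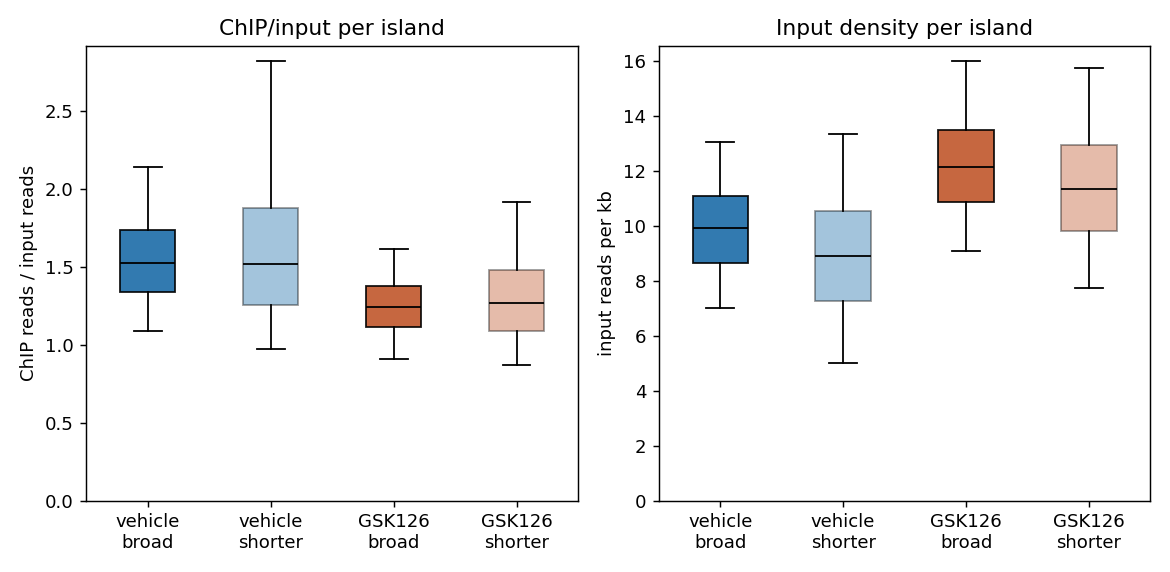
ChIP reads divided by input reads (left) and input reads per kb (right) for broad and shorter islands of each list; boxes span the quartiles with the median as a line, and whiskers run from the 5th to the 95th percentile of islands. Median ChIP/input is 1.53 and 1.52 in vehicle and 1.24 and 1.27 in GSK126, and the broad islands have the higher median input density in both.

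A few islands took a large share of the input. In vehicle, 12 broad islands with 30 or more input reads per kb held 27.6% of the input reads in broad islands, and in GSK126 24 such islands held 16.2%. The densest was chr9:2999801-3038400, with identical limits in both lists and no gene of the table inside. It had 24290 ChIP and 29263 input reads in vehicle, or 758 input reads per kb, and 33228 and 35088 in GSK126, or 909 per kb. Its ChIP/input was below 1 in both lists, at 0.83 (0.82 to 0.84) and 0.95 (0.93 to 0.96), while the authors' fold was 1.39 and 1.58. The longest island of both lists, chr11:3126801-3200000 in vehicle, lay over Sfi1, a centrin-binding protein gene, and the pseudogene Pisd-ps1. It spanned 73200 bases in vehicle with ChIP/input of 0.49 (0.48 to 0.50) and 74800 bases in GSK126 with 0.60 (0.59 to 0.62). Its fold was 0.82 in vehicle and 1.00 in GSK126. Islands over Sp110 and Sp140 (chr1:85584001-85601800 in vehicle, ChIP/input 0.71) and over 2700054A10Rik (chr17:13540401-13553200, 0.64) also combined high input with a ratio below 1. Their folds in vehicle were 1.19 and 1.07. Pisd-ps1 is a pseudogene and Sp110 and Sp140 belong to a family of related genes, so the placement of reads there is uncertain. At the other end, the 5 broad islands with the lowest input had 5.00 to 5.28 input reads per kb and ChIP/input of 2.02 to 2.65 in vehicle, and 6.47 to 7.06 reads per kb and 1.68 to 2.12 in GSK126.

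The other long islands included both gene-free stretches and named loci. The second longest of the vehicle list, chr8:126981201-127035600, spanned 54400 bases without a gene and had ChIP/input of 1.22 (1.12 to 1.33). The island chr11:96158201-96207400 of the vehicle list, 49200 bases long, ran over Ttll6, a tubulin-modifying enzyme gene, and the whole of Hoxb13, the last gene of the Hoxb cluster, with ChIP/input of 2.02 (1.81 to 2.26). The island chr1:88211401-88259800 met 10 genes, 8 of them of the Ugt1a cluster of UDP-glucuronosyltransferases, with ChIP/input of 0.68 (0.64 to 0.73) in vehicle and 47.6 input reads per kb. The matching GSK126 island was 52400 bases long with 0.80 (0.76 to 0.85). Their folds were 1.15 in vehicle and 1.34 in GSK126. Ugt1a genes share their last exons, so their separate counts are uncertain. Esrp1, an epithelial splicing regulator, lay under a GSK126 island of 48600 bases (chr4:11336801-11385400) with ChIP/input of 1.16 (1.06 to 1.28). In the vehicle list broad islands also covered 81.1% of its span. Small gene families lay together under single islands, such as Raet1a, Raet1b, Raet1c and H60b, ligands of a natural killer cell receptor, at chr10:22273201-22286600 in vehicle (ChIP/input 1.70) and the serine protease genes Prss34, Prss28 and Prss29 at chr17:25289801-25320600 in GSK126 (1.33). The promoter windows of these Prss genes also lay in broad vehicle islands.

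The highest folds were found in islands other than the longest. In vehicle the top pair was chr2:94179401-94200200, 20800 bases with a fold of 5.05, and chr1:131778001-131790200, 12200 bases with 5.04, neither of which met a gene. The 5 highest also included islands over Ddx4, a germ-cell RNA helicase gene, with a fold of 4.81, and over Ccdc144b with 4.73. In GSK126 the highest fold was 3.77, at chr1:172244001-172266400 over Atp1a4, which encodes a sodium pump subunit, followed by 3.52 in an island over Nfasc, a neuronal cell adhesion gene.

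Many broad islands lay alone, 49.9% in vehicle and 43.5% in GSK126, with no other broad island within 50 kb. Runs of 3 or more broad islands no more than 50 kb apart numbered 75 in vehicle, with 26.6% of the broad islands, and 181 in GSK126, with 33.3%. The run with most islands in both lists lay on chromosome 4, at chr4:45534601-45790600 with 10 islands in vehicle and chr4:45534001-45931200 with 12 in GSK126, and pooled ChIP/input was 1.31 and 1.34. The run at chr2:114213201-114413000 had 7 vehicle islands and no gene, with a pooled ratio of 1.86. Other GSK126 runs covered Cnr1, a cannabinoid receptor gene (10 islands, ratio 1.04), Epas1, which encodes a hypoxia-inducible factor (9 islands, 1.22), and MHC class II genes, among them H2-Ab1, H2-Aa and H2-Eb1 (7 islands, 1.25). Promoter windows of Cnr1 and H2-Eb1 also lay in broad vehicle islands.

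The broad islands were spread very unevenly over chromosomes. Chromosomes 1, 2, 4, 10, 11 and 17 held 79.0% of broad vehicle islands and 76.6% of broad GSK126 islands on 39.2% of the span. Chromosomes 7, 9, 12, 13, 14 and 18 held 43 (4.02%) and 90 (4.12%) on 32.3% of the span. Chromosome 17 had the most per Mb, 1.68 in vehicle and 3.20 in GSK126, and chromosomes 14 and 18 were lowest in vehicle, at 0.03 each. The order followed the input density of the shorter islands, which ranged in vehicle from 6.25 reads per kb on chromosome 14 to 10.7 on chromosome 17. Across the 17 chromosomes Spearman's rho between broad islands per Mb and that density was 0.98 in vehicle and 0.95 in GSK126, and Pearson's r was 0.92 and 0.90. The chromosomes of a list share 1 ChIP and 1 input library and their depth. The part that input density played in where islands reached 10 kb was not tested.

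**Figure D3:**
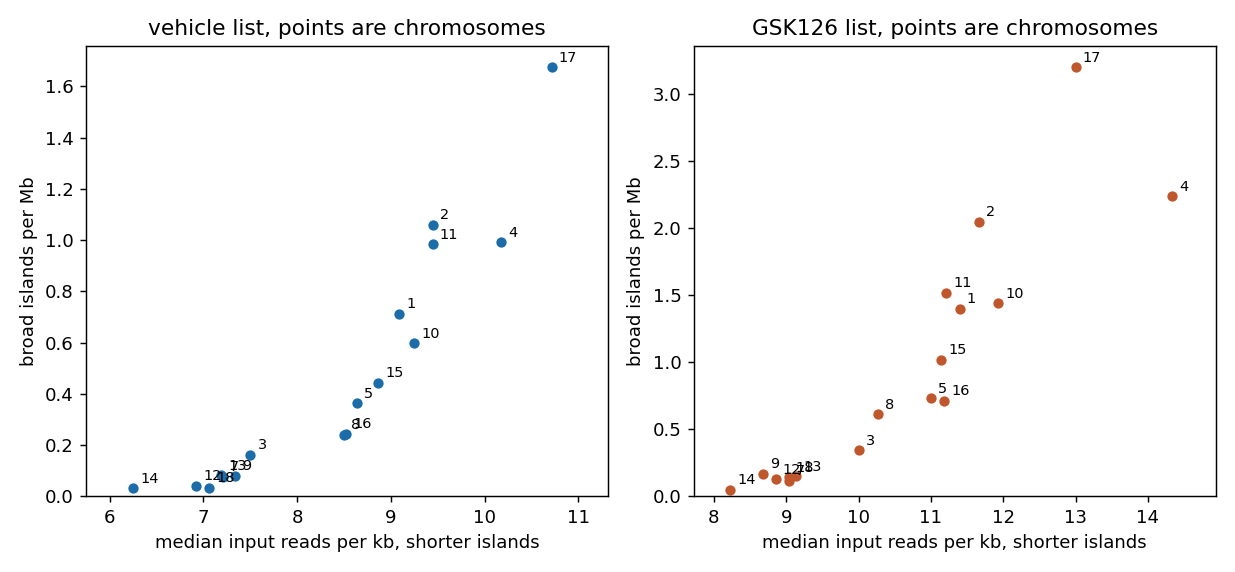
Broad islands per Mb (y axis) against the median input reads per kb of the shorter islands (x axis) in the vehicle (left) and GSK126 (right) lists, 1 labelled point per chromosome. Chromosome 17 has the most broad islands per Mb in both lists, 1.68 and 3.20, and chromosome 14 has the lowest input.

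Most broad islands of either list met an island of the other. Longer islands have more bases to share, so the length rule itself favours this. With a minimum of 20000 bases the share was 100% in both lists. Of the broad vehicle islands 97.1% shared at least 1 base with a GSK126 island of any length, 87.1% had 50% or more of their length overlapped, and 58.0% met a broad GSK126 island. Of the broad GSK126 islands 94.4% met a vehicle island, 69.5% were overlapped over 50% or more of their length, and 28.7% met a broad vehicle island. A broad GSK126 island met 2 or more vehicle islands in 61.4% of cases and 3 or more in 23.2%, and a broad vehicle island met 2 or more GSK126 islands in 49.2%. Vehicle islands broad in both lists had a median length of 13600 bases and ChIP/input of 1.54, against 11800 and 1.505 for those broad in vehicle alone. The GSK126 islands gave 14800 and 1.30 against 12200 and 1.22. Only 3 broad islands had the same limits in both lists. For the gene-free one at chr1:191126801-191139800, ChIP/input was 1.70 in vehicle and 1.19 in GSK126, while for the Sp140 island and the chromosome 9 island the ratio was lower in vehicle (0.58 against 0.72, and 0.83 against 0.95).

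With the placed genes of the deposited table, more broad islands lay outside genes than over them. Without a gene of the deposited table were 611 vehicle islands, 57.2% (95% exact interval 54.1 to 60.1), and 1300 GSK126 islands, 59.5% (57.4 to 61.6). One gene was met by 416 and 821 islands, 2 genes by 38 and 59, and 3 or more by 4 islands in each list. The islands lying wholly within a gene were 21.1% and 21.6%. Gene spans took 32.4% of the bases in broad vehicle islands and 30.9% in GSK126 islands, against 38.6% and 38.3% for the same chromosomes weighted alike. The shorter islands had 31.6% and 28.7%. The placement left out 272 rows whose span joined distant gene copies, a rule set after seeing the data, and with those rows kept the shares without a gene were 46.4% and 51.3%, which turns the order in vehicle. With RefSeq genes in place of the table's genes they were 35.2% and 38.7%, which turns it in both lists.

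Gene deserts, with the nearest gene 100 kb or more away, held 46 broad vehicle islands, 4.30% (3.17 to 5.70), and 194 broad GSK126 islands, 8.88% (7.72 to 10.2). Among the shorter islands 10.1% and 13.8% lay so far from a gene. With RefSeq genes in place of the table's genes, 4 and 40 broad islands lay in deserts. The broad desert islands had a median ChIP/input of 1.46 in vehicle and 1.12 in GSK126, against 1.53 and 1.26 for broad islands over genes, and a median input of 9.09 and 12.9 reads per kb against 9.90 and 11.9. The vehicle island farthest from a gene was chr1:137381601-137392400, 421153 bases away with ChIP/input of 1.27 (0.97 to 1.66) and a fold of 2.13. The farthest GSK126 island was chr2:46940401-46951800, 1242 kb away with 0.92 (0.72 to 1.19), and the next was chr4:29891201-29902400 with 0.59 (0.46 to 0.75). Their folds were 1.54 and 0.98.

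Genes under broad islands were few and mostly had little or no counted RNA. At least 50% of the span was covered for 147 genes in vehicle and 264 in GSK126, of 20087 on these autosomes, and 69 were covered in both (46.9% and 26.1% of each list). A gene met by any base of a broad island was counted 417 and 729 times. Counts were 0 in all 6 RNA libraries for 46 covered vehicle-list genes, 31.3% (23.9 to 39.5), and 95 covered GSK126-list genes, 36.0% (30.2 to 42.1), against 19.4% of all genes on these autosomes. Median RPKM, reads scaled by coding length and library size, in the vehicle library of day 3 was 0 for the covered genes of both lists and 0.53 for all genes. An RPKM of 1 or more was reached there by 4 (2.72%) and 7 (2.65%) covered genes, against 48.0% and 48.7% of genes met by no broad island. Over the 6 libraries these counts stayed between 4 and 5 and between 7 and 8. Covered genes were shorter, with a median span of 9763 and 11140 bases against 15042 for all genes, as the rule on coverage favours. Of genes covered by the shorter islands, 41.6% and 45.3% were at 0 in all libraries.

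**Figure D4:**
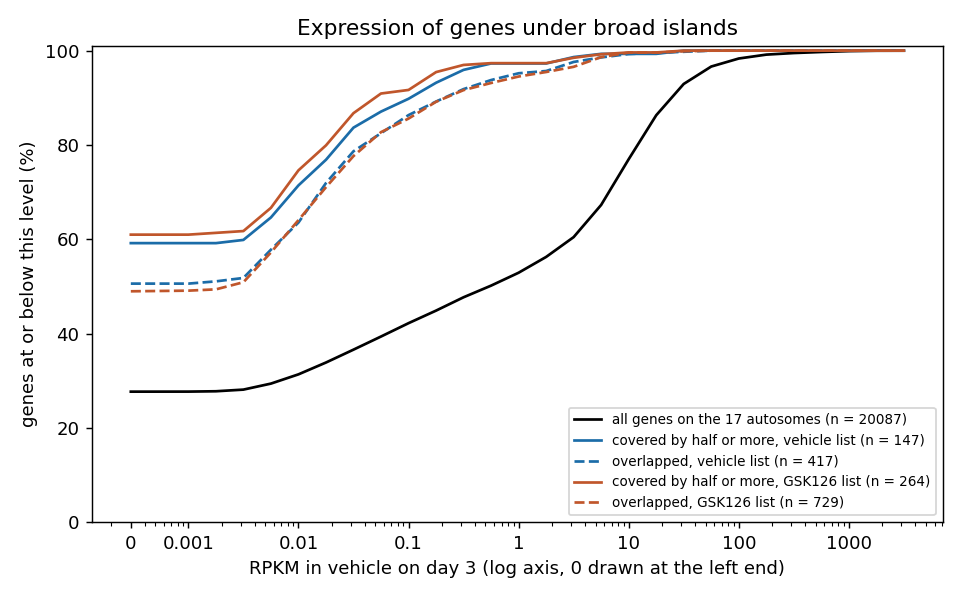
Share of genes (y axis, %) at or below each RPKM in the vehicle library of day 3 (x axis, log scale with 0 at the left end) for all genes on the 17 autosomes, genes overlapped by broad islands (dashed) and genes covered over 50% or more of their span (solid). At an RPKM of 1 the covered genes of both lists stand at 97.3%, against 52.9% of all genes.

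The covered genes with the highest RPKM were often in the high-input islands. Pisd-ps1 stood at 29.0 RPKM in vehicle on day 3, Sp110 at 4.82, Sfi1 at 2.89 and C130026I21Rik at 2.06, and the islands over all of these had ChIP/input below 1 in both lists. Zfp110 and Zfp873, zinc finger genes at 9.29 and 1.85 RPKM, and Gdf6, a BMP-family ligand at 5.23 RPKM, were covered in the GSK126 list (68.4%, 57.8% and 84.7% of the span) and not in the vehicle list. Zfp811, covered over 65.0% in vehicle, stood at 0.421 RPKM, and Actc1, cardiac actin, covered in full in both lists, at 0.336 RPKM. The longest covered stretches lay over Unc13b, a synaptic vesicle priming gene (124 kb of 206 kb in vehicle, 0.12 RPKM), Acoxl (143.6 kb in GSK126, 0.02 RPKM) and Necab1, a neuronal calcium-binding protein gene (115.9 kb in GSK126, 0.01 RPKM). Ikzf3, a lymphoid transcription factor gene, had 44.2 kb covered in vehicle and counts of 0 in every library, and Rnf130, a ubiquitin ligase gene with 52.0 kb covered, was also listed at 0. Rnf130 is known to be widely expressed in mouse tissues, and whether its 0 reflects the counting was not tested.

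Developmental regulators made up a small part of the covered genes, though their own share was above that of all genes. Of 116 developmental transcription factor genes on these autosomes, 6 were covered in vehicle (Lhx2, Lhx3, Neurog2, Cdx2, Neurod2 and Nkx2-5) and 4 in GSK126 (Cdx2, En2, Neurod2 and Olig1), which is 5.17% and 3.45% against 0.732% and 1.31% of all genes. Any base met 7.76% and 9.48% of them, against 2.08% and 3.63% of all genes. These are shares without a test. Cdx2, an intestinal homeobox gene, was covered over 77.2% in vehicle and 99.2% in GSK126, and it had counts of 0 in all 6 libraries, as had Neurod2, covered in full in both. Of 28 Hox genes on these 17 autosomes only Hoxb13 was covered, while Hoxb9 was met over 5.15% of its span in vehicle and Hoxd13 over 39.3% in GSK126. Hox genes on chromosome 6 lay outside the rule and were not counted. Olfactory receptors gave 10 and 15 covered genes of 1024, vomeronasal receptors 0 and 3 of 251, keratins 3 and 2 of 104 and zinc finger genes 1 and 6 of 313. Channel genes for potassium, sodium and calcium were met by a broad island for 7 and 17 of 121, with Kcnj10 covered over 79.7% in vehicle.

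Of 29 osteoblast differentiation genes, none was met in vehicle and 1 (3.45%) in GSK126, Bmp2, covered over 79.3%. At the shares of all genes met, 2.08% and 3.63%, a list of this size would hold about as few. On days 3, 6 and 10 Bmp2 had 0, 2 and 0 counts in vehicle libraries and 8, 8 and 2 in GSK126 libraries, too low for the test. None of 15 cartilage genes, 59 clustered protocadherins or 12 broadly expressed genes was met in either list, and such short lists hold few genes at those shares too. Of other signalling genes, Wnt3a was covered in vehicle and Gdf6, Bmp2 and Fgf20 in GSK126.

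The RNA libraries took no part in calling the islands, so the response of the covered genes to GSK126 is a separate measurement. With edgeR's quasi-likelihood test over all 14344 genes tested and an adjusted p below 0.05, 145 genes were higher with GSK126, a background of 1.01%, and 39 were lower, 0.272%. Of the covered genes 29 in vehicle and 39 in GSK126 passed the filter on low counts, and 1 and 2 of these were called higher and 0 lower. At an unadjusted p below 0.05 there were 7 (24.1%) and 11 (28.2%), against 19.6% of all genes tested. Of the osteoblast list, nearly all outside broad islands, 10 of 26 tested were higher. Of genes met by any base, 5 of 113 tested (4.42%) and 7 of 197 (3.55%) were higher and none lower, and for genes met by shorter islands alone the counts were 44 of 1000 and 31 of 716. Genes silent in both treatments did not pass the filter, and genes near 0 in vehicle passed through their GSK126 counts, so these shares do not speak for all members and support no direction among them.

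Enpp5, an ectonucleotide pyrophosphatase family gene, lay whole within a broad island of both lists (chr17:44076601-44098600 in vehicle). On days 3, 6 and 10 the vehicle libraries had 4, 4 and 8 counts and the GSK126 libraries 44, 130 and 112. Every GSK126 library was above every vehicle library, and the log2 difference was 4.12 (SE 0.43, edgeR adjusted p = 0.0268). Frmpd1, a FERM and PDZ domain gene, was covered over 42.4% by 3 vehicle islands and 78.2% by 3 GSK126 islands. Its counts were 0, 2 and 2 in vehicle and 14, 56 and 70 with GSK126, again without overlap, and the log2 difference was 5.06 (SE 0.54, edgeR adjusted p = 0.0290). Both genes were near 0 in vehicle and passed the filter on low counts through their GSK126 libraries. Under that filter such genes could only be called higher, so the lack of overlap adds no support. The counts of both are small, and Frmpd1 did not pass the filter with counts divided by 2. With day 6 or day 10 left out neither gene passed (edgeR adjusted p 0.113 and 0.133 for Enpp5, 0.133 and 0.158 for Frmpd1).

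Hoxb13 had counts of 8, 0 and 2 in vehicle and 118, 164 and 58 with GSK126, with no overlap between the treatments. Hoxb13 too passed the filter through its GSK126 libraries, and under that filter it could only be called higher. Its log2 difference of 5.09 (SE 0.76) had an edgeR adjusted p of 0.0510, just over the threshold, and it passed with library size alone (0.0446), without the filter (0.0424), with counts divided by 2 (0.0396) and in DESeq2 (1.42e-07). Over all settings its adjusted p ran from 1.42e-07 to 0.390. Lhx2, a LIM homeobox gene, stood at 6, 6 and 12 against 60, 64 and 18 counts, and its log2 difference of 2.45 did not pass (edgeR adjusted p = 0.134). Kcnj10 stood at 18, 18 and 10 against 26, 10 and 12 counts, and the treatments overlapped.

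The other genes called higher were met by broad islands over less than 50% of their span. They were listed after their values were seen. In vehicle they were Pde1b (35.5% covered, promoter inside), Chn1, a Rac GTPase-activating protein gene (1.79%, promoter inside), and Sgk3, a protein kinase gene (2.94%, no promoter window available). Pde1b counts were 242, 300 and 354 in vehicle and 646, 1000 and 1168 with GSK126, and the log2 difference came to 1.66 (SE 0.14; edgeR adjusted p = 0.0197). In GSK126 they were Clic5 (14.2%, promoter inside), Prex1, a Rac exchange factor gene (12.7%), Mtus2 (7.36%), Tmem56 (5.07%, no promoter window available) and Sema5a, a semaphorin gene (2.39%). Prex1 counts were 28, 134 and 410 in vehicle and 146, 1570 and 4790 with GSK126, and the log2 difference came to 3.34 (SE 0.25; edgeR adjusted p = 0.0151). Clic5 stood at 18, 26 and 38 against 110, 140 and 192 counts, a difference of 2.48 (SE 0.25, edgeR adjusted p = 0.0251). In all of these genes each day's GSK126 count lay above that day's vehicle count. The genes were picked by a test on these same pairs, which favours that order, so it adds no support. Of the 10 genes called under broad islands, 8 were called without day 3, 1 without day 6 (Tmem56, edgeR adjusted p = 0.0452) and 0 without day 10, where the edgeR adjusted p ran from 0.0672 to 0.161. Calls over all genes fell too. Without day 3, 202 of 14340 genes tested were higher and 106 lower. Without day 6 these were 18 and 1 of 14475, and without day 10 they were 4 and 0 of 14516. The drop is therefore not particular to genes under broad islands.

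**Figure D5:**
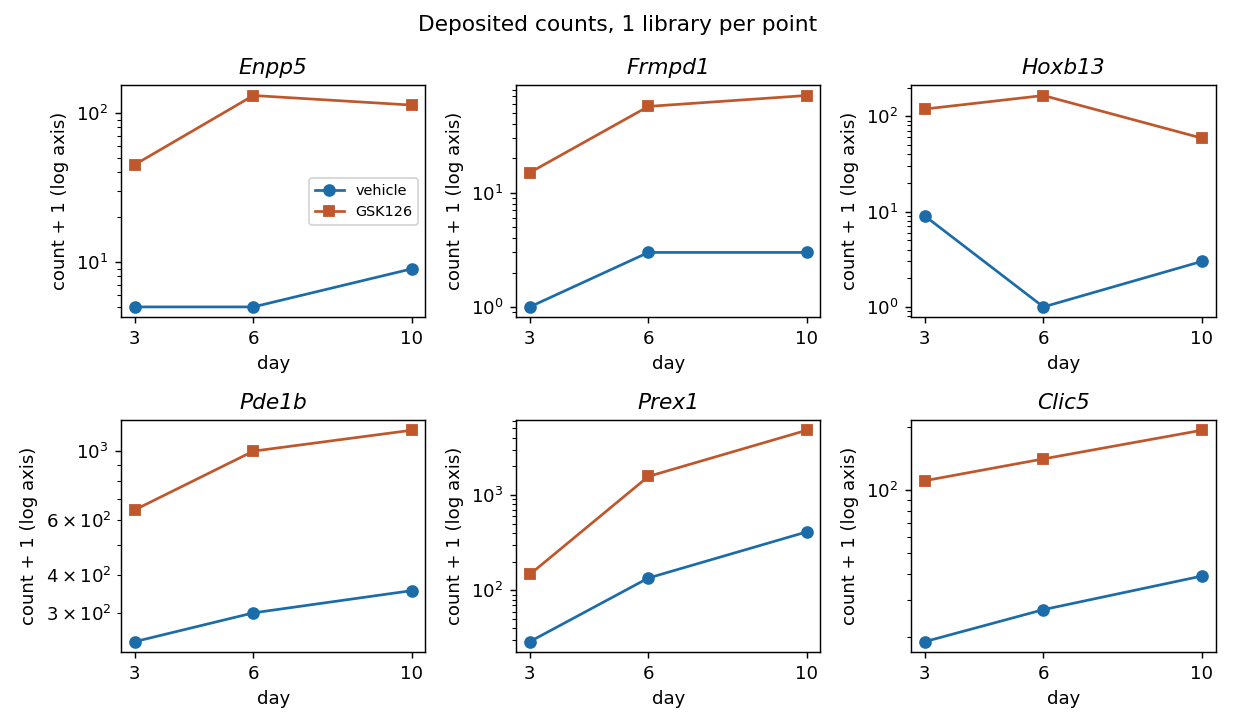
Deposited counts plus 1 (y axis, log scale) on days 3, 6 and 10 (x axis) for 6 genes under or beside broad islands, 1 library per point, vehicle as circles and GSK126 as squares. In each gene the GSK126 library lies above the vehicle library of the same day, from Hoxb13 (118 against 8 on day 3) to Prex1 (4790 against 410 on day 10). All but Hoxb13 were called higher from these same counts, so that order adds no support.

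The RNA came from cells with the markers of their label. All 8 osteoblast-lineage markers reached an RPKM of 1 in at least 1 library, though Bglap stood at 0.908 in vehicle on day 3. Their summed level was 9595 to 11418 in vehicle and 9666 to 13441 with GSK126. Most of that sum was Col1a1 and Col1a2. Neuron markers summed to 2.76 to 10.7 in vehicle and 6.28 to 49.2 with GSK126, and Tubb3 was the only 1 of 6 to reach an RPKM of 1. Adipocyte markers summed to 0.0778 to 0.191 and 0.254 to 0.765, skeletal muscle markers to 1.04 to 2.39 and 1.74 to 2.66, blood and endothelial markers to at most 0.0653, and Myod1, Hbb-b1 and Kdr were at 0. The neuron and adipocyte sums moved with GSK126, but each rested mainly on 1 gene. These were Tubb3, at 49.1 RPKM with GSK126 on day 10, and Fabp4, at 0.765 with GSK126 on day 6. Adipoq never exceeded 4 counts in any library, which is too few to read a direction from. The sums therefore do not speak for a cell type. The part of these markers in the differences of genes under broad islands was not tested.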

How the data were processed

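H3K27me3 ChIP and input DNA (4 libraries) and RNA (6 libraries) were measured in MC3T3 cells. Per the submitters' processing notes, the tools included SICER 1.1, HTSeq 0.5.3p9, TopHat2 2.0.6, BWA 0.5.9 and CASAVA 1.9, with build mm10. Window, gap and threshold of SICER, and the depth of the ChIP and input libraries: not given in the sources used here. For each island the authors deposited the counts of ChIP reads and of input reads, p-values before and after adjustment, and a fold (the ratio of ChIP to input times 1 constant per list). The lists have no header and were read in the layout SICER writes. Their positions count from 0 and are printed from 1. The authors deposited gene counts, without normalization, and RPKM. No deposited count was odd.

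Here island lists were matched to gene spans, leaving out 272 of 23358 table rows whose span joined distant copies of a gene (span over 10 times the RefSeq length, small RNAs over 1000 bases, or unmatched spans over a megabase), a rule set after seeing the data. A gene was covered where 50% or more of its span lay in broad islands. Treatment was tested with edgeR 4.0.16 (R 4.3.3; TMM, filterByExpr, day and treatment as terms, quasi-likelihood F test, Benjamini-Hochberg), and the script was first tested on simulated data. The labels do not say that libraries came from separate cultures. The p-values therefore reflect the spread among these libraries alone, which may be technical. With 1 library per treatment and day, that spread also takes in any change of the treatment difference from day to day. The 3 days stood in for replicates although day 10 followed removal of GSK126. SE is the log2 difference over the root of its F statistic. Intervals are exact binomial. Alternatives used DESeq2 1.42.0, other normalizations, filters, lengths and gene rules.

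The members and gene lists were chosen with earlier results of these data known. Named islands were, per list, the 5 longest, 5 of highest fold, 5 with most genes, 5 of highest and 5 of lowest input density, and 3 on either side of the limit. Named genes were covered genes that were called, the 8 of highest RPKM, the 5 longest covered and up to 4 of each gene list. Runs, desert islands and genes met in part were named after their values were seen. Promoter sequences are from RefSeq GRCm38.p6. Some genes had no promoter window there, among them Enpp5, Sgk3 and Tmem56. No column of per-sample values was left unmapped. A few named islands and runs are not reported here.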

Additional observations from a re-analysis of the deposited data

How the results depend on the processing

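Of 120 values under other settings, 61 stayed within the counting interval, or within 1.5 times for a count, and 59 moved. With a minimum of 20000 bases the vehicle and GSK126 lists held 98 and 214 islands and 36 and 55 covered genes, 37.8% and 49.5% of islands were without a gene, 2.04% and 3.27% in deserts and 100% of both overlapped by the other list. Median ChIP/input was then 1.28 in GSK126, median input 10.6 and 12.7 reads per kb, the share of covered genes at 0 counts 16.7% and 27.3%, the median vehicle-list RPKM 0.00402, and 1 covered GSK126-list gene was called higher. With the authors' adjusted p of 1e-10 or less, ChIP/input in GSK126 was 1.28, input 11.9, desert share 6.59% and overlap 96.8%. Deserts of 50 kb gave 12.2% and 18.96%, of 200 kb 0.842% and 2.93%. Overlap over 50% or more of the island gave 87.1% and 69.5%. Any overlap gave 417 and 729 genes, 24.4% at 0 counts and a median RPKM of 0.00226 in GSK126, and 5 and 7 called higher. Full coverage gave 57 and 93 genes, 45.6% and 52.7% at 0 counts, and 1 called higher in GSK126. All rows of the gene table as deposited gave 46.4% and 51.3% without a gene. RefSeq genes gave 35.2% and 38.7% without a gene, 0.374% and 1.83% in deserts and 372 and 648 covered genes. The rule that left out table rows, and the use of all rows, of RefSeq genes and of islands under 30 input reads per kb, were chosen after seeing the data.

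Calls among covered genes moved with the fit. In the vehicle list 2 were higher with library size alone, without a count filter, or with counts divided by 2, and 5 with DESeq2, which also called 1 lower; in the GSK126 list DESeq2 called 6 higher and 1 lower. Leaving out 1 day at a time gave 0 to 1 higher in the vehicle list and 0 to 2 in the GSK126 list. The libraries were paired by day of culture, which was the block in the fit: without the replicate block (no day term), 0 covered genes and 0 of 14344 genes were called in either list. Over all genes DESeq2 called 688 higher and 635 lower against 145 and 39, leaving out day 3 gave 202 and 106, day 6 gave 18 and 1, and day 10 gave 4 and 0. The cause of these moves was not tested. With 1 ChIP and 1 input library per treatment, no difference between the lists has a replicate check.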
